A study of Homo sapiens with 3 samples.

Results

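A set of 42 genes that encode kinetochore proteins, spindle checkpoint proteins and mitotic kinases was followed in HepG2 cells exposed to 2 doses of etoposide. The members were taken by name, and each of the 42 names was found among the 27274 gene names of the array. HepG2 is an established line from a human hepatocellular carcinoma, and etoposide is an anticancer drug that leaves double-strand breaks in DNA by trapping topoisomerase II. The series holds 3 arrays, 1 each for control cells (0 µM, labelled untreated in the deposited records and named DMSO in the paper), cells given 10 µM etoposide (the low dose) and cells given 100 µM etoposide (the high dose), all harvested at 30 h. The low dose was chosen in the study as one that leads mainly to senescence and the high dose as one that leads mainly to apoptosis. With 1 array per condition there is no replicate check, no p-value is given, and a difference between doses cannot be told apart from a difference between cultures, RNA preparations or arrays.

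The kinetochore is the protein assembly built on the centromere of each chromosome. Its inner part sits on chromatin that contains the histone variant CENP-A, and its outer part binds the ends of spindle microtubules. The spindle checkpoint holds cells before anaphase while any kinetochore lacks microtubules, and the Aurora and Polo-like kinases correct wrong attachments and drive the steps of mitosis. Most of these genes are transcribed mainly in G2 and mitosis and are known targets of repressor complexes that act in arrested cells.

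Each value below is the Cy3 intensity of a 60-base probe after subtraction of the background by the scanner software, printed unscaled and in the order control, low dose, high dose. Fold changes, unlike the printed signals, were computed after setting each array relative to its 75th percentile, which was a signal of 514 without etoposide, 536 at 10 µM and 432 at 100 µM. Where a gene had several probes the brightest was used. All 42 members were well above background in untreated and 10 µM cells, and 37 were so on all 3 arrays. At the high dose CENPK, CENPL, CENPI, AURKB and SPC24 were not well above background. Their decreases are given as bounds (at least N-fold, and for CENPK the observed ratio). A bound does not cover the spread between spots or the choice of background correction. For 7 members the probe was spotted 10 times. For the others the spread between spots was taken from repeated probes of like signal. The SD of the log2 ratio of high dose to control ran from 0.0214 to 0.378 over the members. This SD covers spots of 1 array only.

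The arrays carried the marks of the labelled cells and treatment. All 8 hepatocyte markers were well above background on each array, among them AFP and APOA1, with summed signals of 235000, 256100 and 256500 in control, low dose and high dose cells. All 6 p53 targets used as a check were higher at both doses, CDKN1A by 7.94-fold at the low dose and 7.07-fold at the high dose. None of 5 fibroblast markers was well above background on any array, and 2, 2 and 3 of 4 endothelial markers were. All 4 leukocyte markers found on the array, which included CD14, were well above background on each, with summed signals of 1620, 2050 and 2841, and their part in the results was not tested. RNA was taken from whole cultures, so fewer cells in G2 and mitosis and less RNA of these genes per cell cannot be told apart.

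At the high dose, 32 of the 42 members (76.2%) were lower than in control cells by more than 2-fold, compared with 3.71% of the 16777 genes that gave a fold change. The decrease was more than 4-fold in 23 members, against 1.01% of all genes, and more than 8-fold in 10 members, against 0.191% of all genes. No member was higher by more than 2-fold, a change seen in 6.84% of all genes. The median log2 fold change of the members was -2.25, while that of all genes was 0.10. Among members measured on both arrays the decrease of BIRC5 was the largest, while that of CENPK rests on a signal not well above background. The members that were higher than in control cells were CENPB, MIS12 and CENPT.

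At the low dose no member was higher or lower than in control cells by more than 2-fold, whereas 3.38% of 16663 genes were higher and 1.61% were lower. The log2 fold changes of the members ran from -0.72 for PLK1 to 0.97 for CENPB, with a median of 0.18 beside -0.04 for all genes. Compared with control cells, 25 members were higher and 17 were lower, whereas 45.4% of all genes were higher and 54.6% were lower. By more than 2 SD between spots, 19 members were higher, against 25.8% of all genes, and 10 were lower, against 30.7%, and 13 lay within 2 SD. At a threshold of 1.5-fold, 8 members were higher (CENPB, CENPJ, CENPP, DSN1, KNTC1, SPAG5, SPC25 and ZWINT), against 9.06% of all genes, and PLK1 was lower, against 6.5% of all genes. There were 22 members above control at 10 µM and below it at 100 µM, and 17 that were lower at both. These patterns were not counted over all genes. The 17 include BUB3, MAD2L1, AURKB and CDCA8, whose sign at the low dose changed under other scalings of the arrays. MAD1L1 is also among them, and its sign at the high dose changed likewise.

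The arrays of the 2 doses were also compared directly. At the low dose, 35 members were higher than at the high dose by more than 2-fold, against 3.66% of 16686 genes, and 25 by more than 4-fold, against 1.22%. None was lower by more than 2-fold, a change found in 3.97% of all genes. The median log2 difference of the members was 2.47, compared with -0.11 for all genes. Among members measured on both arrays SPC25 was farthest apart, at 14.8-fold higher at 10 µM than at 100 µM. Both doses were set against the same control array, so the comparisons with control are not independent of each other.

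**Figure D1:**
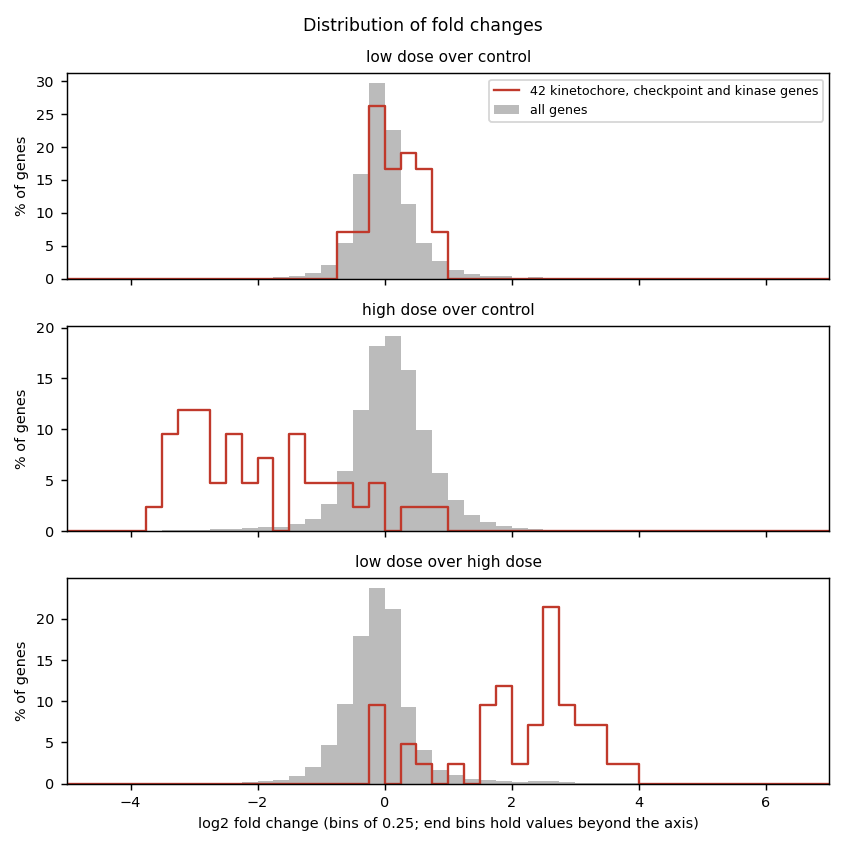
Distribution of log2 fold changes in bins of 0.25 for all genes (grey bars) and for the 42 members (red line), each as a percentage of its own total, in the 3 comparisons. At the high dose the members lie mostly below -1, with a median of -2.25, whereas at the low dose they lie between -0.72 and 0.97.

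**Figure D2:**
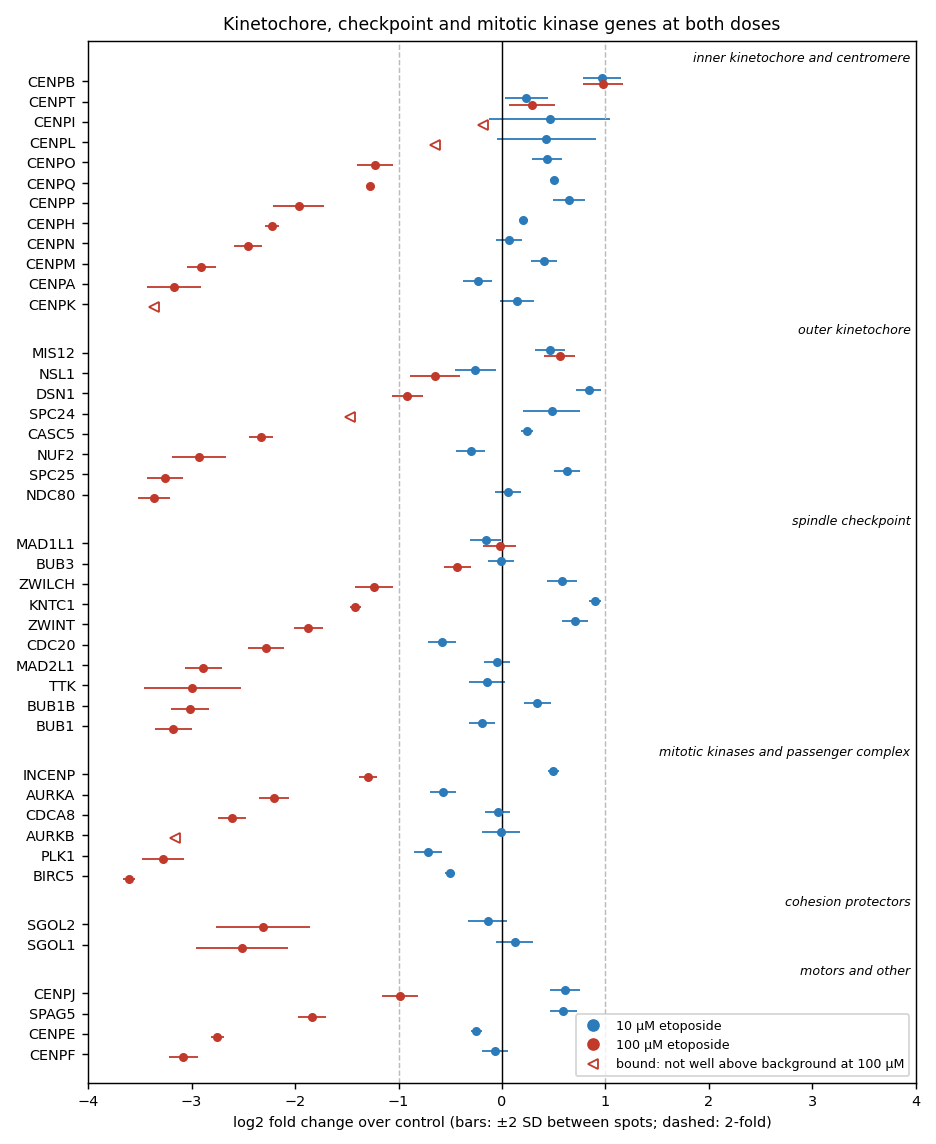
Log2 fold change over control of each member at 10 µM (blue) and 100 µM (red), by role, where bars are 2 SD between spots of 1 array, dashed lines mark 2-fold and open triangles are bounds. The blue points lie within 2-fold of control, and 32 of the 42 red points lie below the line of a 2-fold decrease.

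The promoters of the members were then read for short motifs, since G2 and mitosis genes are known to share the cell cycle genes homology region (CHR, TTTGAA, with TTCGAA as a variant) and CCAAT boxes, the letters bound by NF-Y. RefSeq windows on GRCh38.p14, from 250 bases before to 50 after the start of a gene, were found for 33 members, 5 of which had more than 1 window. CENPH, CENPL, CENPM, BUB3, TTK, KNTC1, AURKA, BIRC5 and CASC5 had no window listed. Both strands were searched. TTTGAA was present in 15 of the 25 members with a window that were lower by more than 2-fold at the high dose and in 0 of the 8 that were not. Counted by window, as in all genes, it was in 16 of 30 (53.3%) and 0 of 9, compared with 15.2% of 35116 windows of all genes. TTCGAA was in 3 of 30 windows and 0 of 9, compared with 1.45% of all windows. CCAAT was in 22 of 30 windows (73.3%) and 2 of 9 (22.2%), compared with 34.6%. By gene it was in 19 of 25 and 1 of 8, since both of the 2 windows are overlapping ones of MIS12. TTTNNCGC, which resembles E2F sites, was in 3 of 30 windows (10.0%) and 5 of 9 (55.6%), compared with 6.89%. By gene it was in 3 of 25 and 4 of 8. TTTGAA and CCAAT lay together in a window of 10 members, all among the 25, and in 5.9% of all windows, a share that is not counted by gene. CENPI counts among the 8 although its decrease is only a bound, and CENPJ and DSN1 count among them although they passed 2-fold under other scalings of the arrays. These counts describe letters in a window and are not evidence of binding.

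The 130 bases before the start are shown for members with a large decrease at the high dose and a CHR in them. They are written 5′ to 3′ on the strand of the gene, with TTTGAA and CCAAT on either strand in capitals (TTCAAA and ATTGG are their reverse forms).
PLK1 (chr16:23678759-23678888, + strand): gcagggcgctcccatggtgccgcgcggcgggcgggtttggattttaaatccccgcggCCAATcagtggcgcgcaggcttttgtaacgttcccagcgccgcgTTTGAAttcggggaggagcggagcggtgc
CENPA (chr2:26785926-26786055, + strand): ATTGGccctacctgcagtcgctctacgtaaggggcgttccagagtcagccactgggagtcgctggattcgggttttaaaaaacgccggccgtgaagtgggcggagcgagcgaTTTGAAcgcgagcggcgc
BUB1B (chr15:40160939-40161068, + strand): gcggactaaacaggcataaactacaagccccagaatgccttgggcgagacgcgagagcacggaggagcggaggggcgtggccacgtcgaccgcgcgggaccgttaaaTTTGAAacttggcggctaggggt
CDCA8 (chr1:37692386-37692515, + strand): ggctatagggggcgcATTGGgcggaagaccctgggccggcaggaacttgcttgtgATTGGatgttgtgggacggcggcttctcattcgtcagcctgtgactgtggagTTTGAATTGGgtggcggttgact
CDC20 (chr1:43358851-43358980, + strand): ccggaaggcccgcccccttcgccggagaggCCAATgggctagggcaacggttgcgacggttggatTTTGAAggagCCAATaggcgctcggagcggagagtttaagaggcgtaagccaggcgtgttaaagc
In these stretches the first base of the CHR lay at -29 in PLK1, -18 in CENPA, -23 in BUB1B, -23 in CDCA8 and -65 in CDC20, where -1 is the base before the start. In CDCA8 the CHR shares its last base with a reverse CCAAT, which lies directly at its 3′ side. CDC20 held another CHR at -178, outside the stretch shown.

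The same bases are shown for 4 members that were not lower by more than 2-fold.
CENPB (chr20:3786741-3786870, - strand): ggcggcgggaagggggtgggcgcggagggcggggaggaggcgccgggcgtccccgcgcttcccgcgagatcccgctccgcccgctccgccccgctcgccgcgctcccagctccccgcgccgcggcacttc
CENPT (chr16:67847694-67847823, - strand): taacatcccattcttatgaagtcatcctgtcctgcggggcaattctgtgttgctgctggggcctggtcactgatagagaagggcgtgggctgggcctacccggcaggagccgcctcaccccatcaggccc
MAD1L1 (chr7:2232946-2233075, - strand): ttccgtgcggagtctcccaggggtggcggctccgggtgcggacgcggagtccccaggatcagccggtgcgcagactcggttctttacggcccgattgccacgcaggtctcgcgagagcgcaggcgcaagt
MIS12 (chr17:5486244-5486373, + strand): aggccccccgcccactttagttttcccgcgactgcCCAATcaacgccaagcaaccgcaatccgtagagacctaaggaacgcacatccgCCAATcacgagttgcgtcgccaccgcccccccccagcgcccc
No TTTGAA occurred in these stretches. MIS12 held 2 CCAAT boxes in the bases shown, whereas CENPB, CENPT and MAD1L1 held none.

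**Figure D3:**
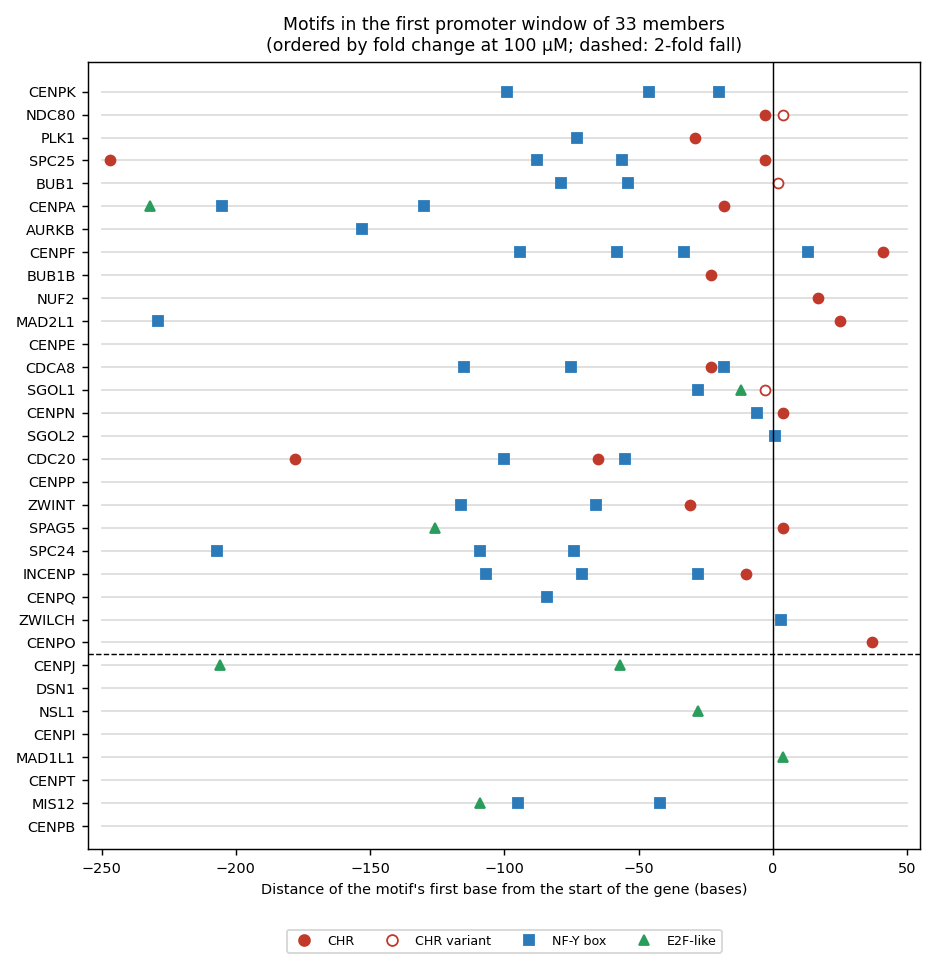
Position of each motif (first base, in bases from the start of the gene) in the first RefSeq window of 33 members, ordered by log2 fold change at 100 µM from the lowest at the top, with the dashed line at a 2-fold decrease. The CHR symbols all lie above the dashed line, 15 members holding TTTGAA and 3 the variant, and no member below the line holds either.

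Among 12 genes of the inner kinetochore and centromere, 8 were lower at the high dose by more than 2-fold, against 3.71% of all genes. The median log2 fold change of the 12 was -1.62. At the low dose 11 were higher than in control cells, against 45.4% of all genes, and the median of the 12 was 0.42. Of these 11, CENPI, CENPK, CENPL and CENPN lay within 2 SD between spots. CENPA encodes the histone variant that marks the centromere. Its signal was 664 without etoposide, 588 at 10 µM and 62.0 at 100 µM, with log2 fold changes of -0.24 at 10 µM and -3.17 at 100 µM. CENPB, which binds a motif in centromeric alpha satellite DNA, gave signals of 163, 332 and 269. It was the member with the highest log2 fold change at both doses, 0.97 at 10 µM and 0.98 at 100 µM, each just under 2-fold, with SDs between spots of 0.09 and 0.10.

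The subunits CENPH, CENPI, CENPK and CENPM form 1 subcomplex of the constitutive centromere network. CENPK (NM_022145, probe at chr5:64849569-64849628 on hg18) had signals of 288 without etoposide, 332 at 10 µM and 23.6 at 100 µM. It was thus slightly higher at the low dose, by 0.15 on the log2 scale with an SD of 0.08. At the high dose its observed ratio was 10.3-fold lower, with an SD of 0.25 on the log2 scale. That signal was not well above background but was over the limit of 21.65, so it was used as it was. With another background correction (normexp) the log2 fold change of CENPK was -1.53. CENPM, with 6251, 8639 and 701, was 7.50-fold lower at the high dose, and CENPH, with 493, 594 and 89.0, was 4.66-fold lower. CENPI (NM_006733, chrX:100304573-100304632 on hg18) was dim on each array, at 29.2, 41.9 and 5.06. Its bound of at least 1.13-fold therefore leaves the size of its decrease unknown. The dimmer probe of CENPI gave a bound in the same direction.

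CENPO, CENPP and CENPQ belong to another subcomplex and were each higher at 10 µM and lower at 100 µM. The log2 fold changes were 0.43, 0.65 and 0.50 at 10 µM and -1.23, -1.96 and -1.28 at 100 µM. CENPL and CENPN bind each other, and CENPN recognises CENP-A nucleosomes. CENPL (signals of 40.5, 56.9 and 20.6) had a bound of at least 1.57-fold lower at the high dose. On the log2 scale this was -0.65 with an SD of 0.33, within 2 SD between spots, and -0.02 with normexp. CENPT, which links centromeric chromatin to the outer kinetochore, gave 126, 155 and 130, with log2 fold changes of 0.24 and 0.29 at the low and high dose.

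CENPN was the member whose probes differed most. Its brightest probe (NM_018455, chr16:79611372-79613909 on hg18, a span longer than the probe, so that it crosses an intron) gave signals of 3564 without etoposide, 3905 at 10 µM and 548 at 100 µM, a 5.47-fold decrease at the high dose. A probe assigned to NM_001100624 gave 578, 1135 and 193, which was 1.88-fold higher at the low dose and had a log2 fold change of -1.34 at the high dose. A dim probe assigned to NM_001100625 gave 21.4, 54.7 and 27.2. It was too dim to be called above background without etoposide. That signal was over the limit of 19.5 and was used as it was. The log2 fold changes of this probe were 1.29 at the low dose (SD 0.36) and 0.59 at the high dose (SD 0.41). The sign at the high dose thus depended on this dim probe, whose value there lay within 2 SD between spots. The other CENPN probes both gave a decrease. For CENPP, the brightest probe gave a log2 fold change of -1.96 and another probe of the same transcript gave -0.05.

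**Figure D4:**
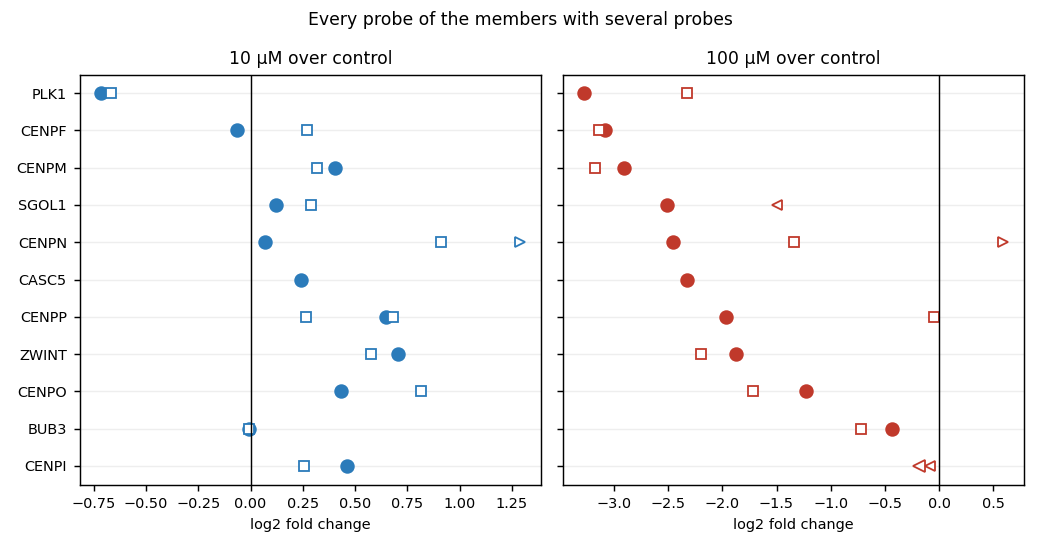
Log2 fold change over control of every probe that gave one, for the 11 members with several probes, at 10 µM (left) and 100 µM (right). Filled circles are the brightest probe, open squares other probes and triangles bounds. A probe of CASC5 at both doses and a probe of CENPP at 100 µM were too dim and are not shown. At 100 µM the probes of a gene lie on the same side of 0 except in CENPN, where a dim probe lies above 0. Its value is within 2 SD between spots. In CENPP 1 probe lies close to 0.

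In the outer kinetochore, NDC80, NUF2 and SPC25 of the NDC80 complex had larger decreases at the high dose than DSN1 and NSL1 of the MIS12 complex. MIS12 itself was not lower. NDC80, NUF2, SPC24 and SPC25 make up the rod that binds microtubules. NDC80 (NM_006101, chr18:2600798-2600857 on hg18) had signals of 3148 without etoposide, 3411 at 10 µM and 258 at 100 µM. It was 10.3-fold lower at the high dose, while its log2 fold change at the low dose was 0.06 with an SD of 0.06. SPC25, at 1503, 2431 and 132, was 1.55-fold higher at the low dose and 9.57-fold lower at the high dose. NUF2, at 584, 494 and 64.5, was lower at both doses, by 7.62-fold at the high dose. SPC24, at 71.1, 104 and 5.90, had a bound of at least 2.76-fold lower at the high dose. With normexp its log2 fold change there moved from -1.47 to -0.27.

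The MIS12 complex joins the inner and the outer layer. MIS12 (NM_024039, chr17:5334434-5334493 on hg18) gave 476 without etoposide, 686 at 10 µM and 589 at 100 µM, so it was above control at both doses, with log2 fold changes of 0.47 and 0.56 and SDs of 0.07 and 0.08. DSN1, at 647, 1207 and 289, was 1.79-fold higher at the low dose and 1.88-fold lower at the high dose. NSL1, at 167, 146 and 89.8, was 1.57-fold lower at the high dose. None of these MIS12 complex subunits passed 2-fold in either direction, but DSN1 did so under 3 other scalings (no scaling, median and spike-in scaling), over which its log2 fold change at the high dose reached -1.20. CASC5, now named KNL1, is the scaffold on which checkpoint proteins gather, and its signals of 370, 456 and 61.9 gave a 5.03-fold decrease at the high dose.

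Of 10 spindle checkpoint genes, 8 were lower at the high dose by more than 2-fold (median log2 fold change -2.08), and the median at the low dose was -0.03. BUB1 (NM_004336, chr2:111112171-111113812 on hg18), a kinase that marks centromeric chromatin and recruits checkpoint proteins, gave 1312 without etoposide, 1199 at 10 µM and 122 at 100 µM, a 9.04-fold decrease at the high dose. BUB1B encodes BubR1, a subunit of the mitotic checkpoint complex. Its signals were 1184, 1566 and 123, so it was 1.27-fold higher at the low dose and 8.08-fold lower at the high dose. TTK, the kinase also called MPS1 that starts checkpoint signalling, gave 288, 271 and 30.4, a 7.96-fold decrease at the high dose. Its signal there was dim, and the SD between spots was 0.23 on the log2 scale. MAD2L1, which encodes the checkpoint protein MAD2, gave 1269, 1281 and 144, a 7.39-fold decrease.

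Their partners BUB3 and MAD1L1 stood apart at the high dose. BUB3, which binds both BUB1 and BubR1, had signals of 4230, 4392 and 2638 and was 1.35-fold lower at the high dose. Its other probe was 1.65-fold lower there. MAD1L1 (NM_003550, chr7:1904463-1904522 on hg18) anchors MAD2 at kinetochores. It gave 458 without etoposide, 429 at 10 µM and 380 at 100 µM, with log2 fold changes of -0.16 and -0.02 and SDs of 0.07 and 0.08. The sign of MAD1L1 at the high dose depended on the scaling of the arrays, over which its log2 fold change ran from -0.31 to 0.04.

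CDC20, the activator of the anaphase promoting complex that the checkpoint holds back, was lower at both doses, with signals of 911, 635 and 157, log2 fold changes of -0.58 and -2.28. KNTC1 and ZWILCH are subunits of the complex that brings dynein to kinetochores, and ZWINT tethers that complex. These genes were above control at the low dose, KNTC1 by 1.87-fold, and ZWINT by 1.63-fold, while ZWILCH had a log2 fold change of 0.58. At the high dose they were lower than control by 2.67-fold, 3.66-fold and 2.36-fold. ZW10, the remaining subunit of the complex and no member of the 42, had log2 fold changes of -0.21 and -0.46.

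All 6 mitotic kinase and chromosomal passenger genes were lower at the high dose by more than 2-fold, with a median log2 fold change of -2.88, and the median at the low dose was -0.27. INCENP was no longer past 2-fold with normexp background correction (-0.82). At the low dose BIRC5, PLK1 and AURKA were below control by more than 2 SD between spots, none of them by 2-fold. BIRC5 (chr17:73732315-73732374 on hg18) encodes survivin, a passenger subunit that is also known as an inhibitor of apoptosis. Its probe, spotted 10 times, gave 16560 without etoposide, 12226 at 10 µM and 1145 at 100 µM. It was 12.2-fold lower at the high dose, with an SD of 0.03 on the log2 scale, and its log2 fold change at the low dose was -0.50.

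PLK1, the Polo-like kinase that acts from mitotic entry to cytokinesis, had signals of 1111, 705 and 96.4. Its log2 fold change of -0.72 at the low dose was the lowest among the members, and its other probe gave -0.67. At the high dose PLK1 was 9.69-fold lower, and 5.02-fold lower by the other, dimmer probe. AURKA, the Aurora kinase of spindle poles, gave 2330, 1639 and 425, with log2 fold changes of -0.57 and -2.21. PLK1, CDC20 and AURKA thus had the lowest log2 fold changes of the members at the low dose.

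AURKB, the catalytic subunit of the passenger complex, gave 230, 238 and 17.2 and was at least 8.92-fold lower at the high dose. CDCA8, which encodes the subunit borealin, gave 3671, 3722 and 505, a 6.11-fold decrease. At the low dose the log2 fold changes of AURKB (-0.01, SD 0.09) and CDCA8 (-0.04, SD 0.06) lay within the spread between spots and changed sign over the scalings. INCENP (NM_001040694, chr11:61676318-61676377 on hg18), the scaffold of the complex, differed from its partners in that it was higher at the low dose. Its probe was spotted 10 times and gave 276, 406 and 94.3, so it was 1.41-fold higher at the low dose and 2.46-fold lower at the high dose.

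The shugoshins protect centromeric cohesin until anaphase. SGOL1, now named SGO1 (NM_001012409, chr3:20187619-20187678 on hg18), gave 236, 268 and 34.9, a 5.70-fold decrease at the high dose. SGOL2, now named SGO2 (NM_152524, chr2:201146758-201146817 on hg18), gave 187, 177 and 31.6, a 4.97-fold decrease. Both were dim at the high dose, with SDs between spots of 0.22 and 0.23 on the log2 scale. At the low dose the log2 fold changes were 0.12 and -0.14, each within 2 SD between spots. A dimmer probe of SGOL1 was not well above background at the high dose and was at least 2.82-fold lower there.

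Of the other members, CENPF (NM_016343, chr1:212903931-212903990 on hg18), a large protein of the outer kinetochore and nuclear envelope, gave 6722, 6698 and 668. It was 8.46-fold lower at the high dose, where its other probe gave a log2 fold change of -3.14. At the low dose its log2 fold change was -0.07 with an SD of 0.06. The other, dimmer probe gave 0.27 there with an SD of 0.09, so the sign depended on the probe. CENPE, a kinesin that moves chromosomes to the spindle equator, gave 532, 468 and 66.5, a 6.73-fold decrease at the high dose. SPAG5, which encodes the spindle protein astrin, gave 5455, 8593 and 1284 and was 1.51-fold higher at the low dose and 3.57-fold lower at the high dose. CENPJ, now named CPAP (NM_018451, chr13:24355406-24355465 on hg18), is a centriole protein rather than a kinetochore protein. It gave 543, 866 and 230, which was 1.53-fold higher at the low dose and 1.99-fold lower at the high dose, just inside the threshold, which it passed under 4 other scalings (down to -1.28 on the log2 scale).

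**Figure D5:**
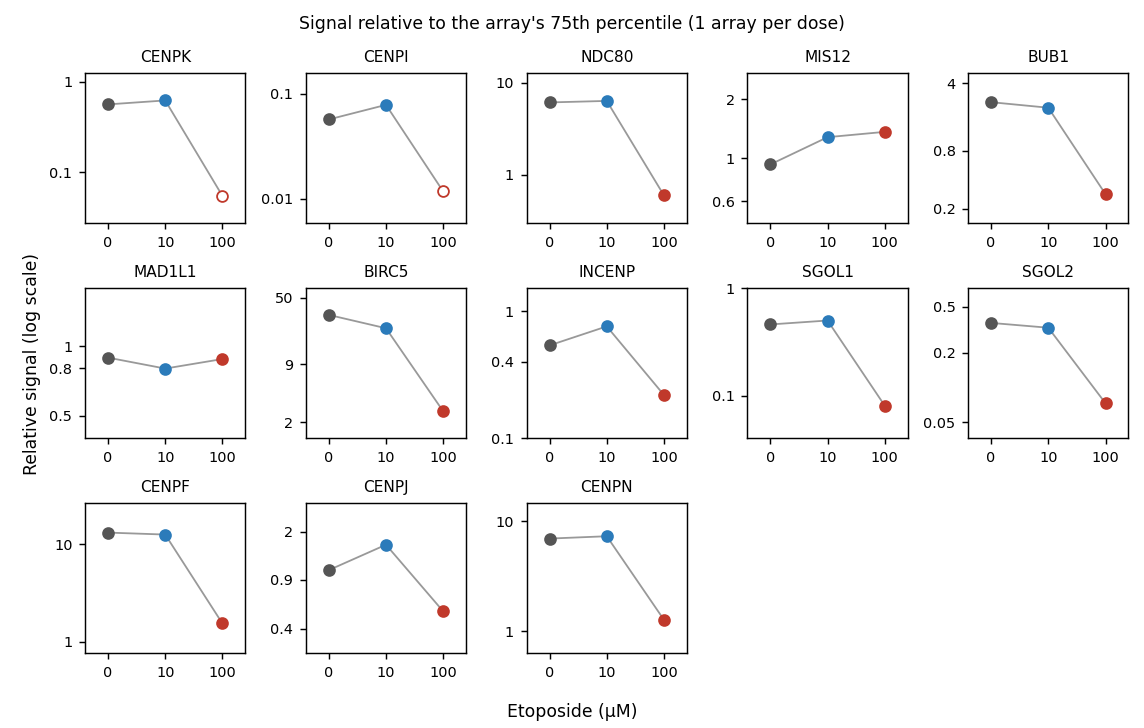
Signal of 13 members as a multiple of the 75th percentile of the array (log axis, a scale of its own for each gene) at 0, 10 and 100 µM etoposide, 1 array per dose, where open circles were not well above background. CENPK, NDC80, BUB1, BIRC5 and CENPF are lower by more than 8-fold at 100 µM, whereas MIS12 lies above control at both doses and MAD1L1 stays within 1.5-fold of it.

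Further genes of the kinetochore and its regulators were counted for comparison. Of 33 such genes on the array, 32 gave a fold change, with a median log2 fold change of -1.21 at the high dose. There 18 were lower by more than 2-fold, against 3.71% of all genes, and 2 were higher, against 6.84%. PBK, a mitotic kinase, had the lowest value (-3.37), and the genes that were higher were PLK2 and PLK3, Polo-like kinases known to respond to stress. PLK2 had log2 fold changes of 2.67 at 10 µM and 2.01 at 100 µM, and PLK3 had 1.96 and 1.23, opposite in sign to those of PLK1. At the low dose these were also the 2 genes of the list that were higher by more than 2-fold, against 3.38% of all genes. None was lower, against 1.61%. The list of 18 genes of the anaphase promoting complex, its regulators and separase had a median of -0.16 at the high dose. There 4 were lower by more than 2-fold (UBE2C, PTTG1, ESPL1 and FBXO5), against 3.71% of all genes. None of the 18 passed 2-fold at the low dose, where 3.38% of all genes were higher and 1.61% were lower.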

How the data were processed

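RNA of HepG2 cells was amplified, labelled with Cy3 and hybridized to Agilent human arrays of 1 colour, with 1 array for each of 3 conditions. The authors deposited the scanner output of Feature Extraction 10.7.3.1, in which the intensity of each of 44495 spots had its background subtracted and trends across the array removed. The deposited series table held the same intensity values (44495 of 44495 rows equal within 0.001 on each array), with no scaling between arrays. Of the spots 43118 were not controls, for 34127 probes.

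From these intensities, spots marked as outliers were left out, the rest of a probe was averaged as log2, and the 75th percentile over all probes of an array was subtracted. The brightest probe by mean log2 over the 3 arrays stood for a gene. A probe was well above background where the software called over 0.5 of its spots so. A fold change needed this on the brighter side, and a dimmer side that failed it was set to the dimmest signal that passed this call on its array, or kept if brighter (19.5 in control, 22.65 at the low dose, 21.65 at the high dose), which gives a bound. The spread between spots came from the 50 repeated probes nearest in signal on the array. The number of arrays limits the precision, and no test was made. The steps were tested on simulated arrays.

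The members, gene lists, motifs and thresholds were chosen with earlier results of these data known. Members described in full were, in each role group, those with the largest and smallest computed change at the high dose (bounds included, so that CENPI was taken although CENPT had the smallest measured change of its group), and any whose probes differed in direction by over 1.5-fold. No member met the rule's further terms, a rise of over 2-fold or a decrease of over 2-fold at both doses. Other members were chosen after their values were seen. Gene names and probe positions are those of the array files (hg18), and 4 members have newer symbols. Promoter windows are RefSeq's on GRCh38.p14, and positions of the 2 builds were not compared. Alternatives in scaling, background correction (normexp), filter, probe rule and threshold are given further on. Python 3.11.15, pandas 2.3.3, numpy 2.4.6, R 4.3.3 and limma 3.58.1 were used.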

Additional observations from a re-analysis of the deposited data

How the results depend on the processing

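The median decrease of the members at the high dose kept its direction under each of 12 alternative settings. No median changed sign in the other comparisons either, while counts of members have no sign that could reverse. The median log2 fold change at the high dose was -2.50 with no scaling, -2.54 with median scaling, -2.42 with spike-in scaling, -2.12 with the mean over all probes of a gene and -1.48 with normexp, which adds 50 to each signal. The median of low dose over high dose was 2.78, 2.73, 2.69, 2.19 and 1.61 in the same order. The median of all genes at the high dose moved from 0.10 to -0.15 with no scaling and to -0.19 with median scaling. Upward, CENPB, just under 2-fold at both doses, was the 1 member that passed it, at 10 µM with no scaling or spike-in scaling, and again the 1 at 100 µM with the percentile over all spots. The 32 members lower by more than 2-fold at the high dose became 34 with no scaling, median and spike-in scaling (CENPJ and DSN1 added) and with quantile normalization (CENPJ and CENPL added). They became 27 with normexp (without CENPO, CENPQ, INCENP, SPC24 and ZWILCH), 29 when each array had to be well above background and 33 with no filter and no floor, where CENPI was at -2.28. With normexp AURKB moved from -3.16 to -1.43, CENPK from -3.36 to -1.53, SPC24 from -1.47 to -0.27 and CENPL from -0.65 to -0.02. With quantile normalization CENPK (-3.69, a bound) lay below BIRC5 (-3.56). At 1.5-fold, 8 members were higher and 1 was lower at the low dose, and 1 was higher at the high dose. Other counts taken at 2-fold stayed within 1.5 times of those reported. Counts past 4-fold and 8-fold were not repeated under the alternatives. With normexp CENPH (-2.22 to -1.59) no longer passed 4-fold and BUB1 (-3.18 to -2.63) no longer passed 8-fold. Over 7 scalings the sign changed for 4 members at the low dose (BUB3, MAD2L1, AURKB and CDCA8) and for MAD1L1 at the high dose. Between the low and the high dose it changed for 4 members (CENPB, CENPT, MAD1L1 and MIS12). For the 13 members described in full, 123 of 461 values moved by more than the spread between spots and none over 2-fold reversed. No paired analysis was possible because only 1 array was made per condition, and for the same reason no replicate could be left out. Signals near background limit CENPI, CENPL, CENPK, AURKB and SPC24 at the high dose, whose decreases are bounds.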
